A study of Mus musculus with 6 samples.

Results

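The genes described here encode the mouse receptors for glutamate, the transporters that load glutamate into synaptic vesicles, and the scaffold proteins that hold the receptors in place. They were chosen by name as 33 genes, and every array probe annotated to a member was taken. Of the 33 genes, 29 had at least 1 probe, and these 29 genes had 63 probes among the 45281 on the array. Grin1, Grm2, Homer3 and Grid1 had no probe under their symbols and were not analysed here, so the delta receptor class had no value. RNA came from the ventromedial hypothalamus of mice aged 16 weeks on a mixed genetic background. The SIRT1 deletion group held 3 RNA pools from Sf1-Cre; Sirt1loxP/loxP mice, and the control group held 3 pools from Sirt1loxP/loxP mice, each pool on 1 Illumina bead array. The comparison asked how gene expression in this nucleus differs when Sirt1, which encodes a NAD-dependent deacetylase, is deleted in neurons that express SF1. All mice carried the floxed Sirt1 allele, and the labels give Sf1-Cre for the deletion mice only, so that the presence of Cre and the loss of Sirt1 cannot be told apart. RNA was taken from the whole tissue, of which the SF1 neurons are a part. The sources used here do not say how many mice made up a pool, so each p-value reflects only how these pools varied.

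Glutamate is the main fast excitatory transmitter of the brain. AMPA and kainate receptors pass fast currents, NMDA receptors admit calcium when glutamate and a co-agonist bind while the membrane is depolarised, and metabotropic receptors act through G proteins. In the hypothalamus, vesicles are loaded mainly by the product of Slc17a6, and the SF1 neurons of the ventromedial nucleus are known as glutamatergic. At the postsynaptic membrane the product of Dlg4 anchors NMDA receptors, and Shank and Homer proteins link them to metabotropic receptors.

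Between 20053 and 20611 probes per array had a detection p under 0.05, and 20402 probes met that limit on at least 3 of the 6 arrays and were tested. The probe for Sirt1 gave log2 intensities of 7.77, 7.68 and 7.51 in SIRT1 deletion pools 1 to 3, against 7.81, 7.62 and 7.64 in control pools 1 to 3, so the groups overlapped. Whether it lies inside the floxed segment is unknown, so it checks neither the deletion nor the labels. Of the 13 ventromedial nucleus marker genes with a probe, 12 were tested, and Nr5a1, which encodes SF1, Fezf1, Sox14 and Adcyap1 each had a probe detected on 6 arrays. Nr5a1, the gene whose promoter drives the Cre, had log2 intensities of 5.30, 5.72 and 5.46 in SIRT1 deletion pools, against 5.11, 4.90 and 5.13 in control pools (ILMN_1254140, difference 36.3%, 95% interval 11.6% to 66.5%, limma adjusted p = 0.470). Every deletion pool lay above every control pool, as in 7.15% of all tested probes. The probe was dim, since the lowest detected value per array was 4.86 to 4.90, and the other Nr5a1 probe was detected on 1 array. Of the 12 tested ventromedial marker genes, 8 were lower and 4 higher, with a mean log2 difference of -0.037. The cortical markers Neurod6, Tbr1 and Emx1 were detected on 0 arrays, and 4 of 7 cortical and hippocampal markers were tested. These were Nrgn, Cux2 and Prox1, each with a probe detected on 6 arrays, and Neurod2, with a probe detected on 3. Of these 4, 3 were higher and 1 lower in SIRT1 deletion pools, with a mean log2 difference of 0.10. The mean log2 intensity of 7 general neuron markers was 11.35 to 11.41 in SIRT1 deletion pools and 11.27 to 11.43 in control pools. Of the tested markers of exocrine pancreas, 12 of 12 were lower, against 51.0% of all tested probes. At a limma adjusted p under 0.05, 3 of the 12 passed, against 0.0490% of all tested probes (0.0196% lower). The list mean was 5.73 to 6.14 in SIRT1 deletion pools and 6.90 to 7.11 in control pools. The meninges and fibroblast list (6 genes tested) had means of 6.48 to 7.03 in SIRT1 deletion pools and 6.55 to 7.60 in control pools. The part of these markers in the values below was not tested.

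Of the 63 member probes, 39 (22 genes) passed the detection filter, and 33 of the 39 were detected on all 6 arrays. The other 24 probes did not pass, and 18 of them were not above background on any array. Detection by class is given as counts, with no test of the difference. All 4 AMPA genes and all 5 kainate genes were tested, against 3 of the 6 NMDA genes, 4 of the 6 metabotropic genes, 2 of the 3 vesicular transporters and 4 of the 5 scaffolds that had a probe. These counts depend on the number of probes per gene: by probe, 7 of 13 kainate and 6 of 13 metabotropic probes were tested. Grin2d, Grin3b, Grm3 and Grm6 were not well above background on any array. Grm6 encodes the metabotropic receptor known from retinal bipolar cells. Grin2c and Slc17a7 were each detected on 1 of 3 SIRT1 deletion arrays and 1 of 3 control arrays. Slc17a7 encodes the vesicular transporter typical of cortex. The Shank1 probes were detected on 2 and 1 of the 3 SIRT1 deletion arrays and on 0 control arrays, with log2 intensities of 4.92, 4.48 and 4.90 in SIRT1 deletion pools against 4.86, 4.56 and 4.72 in control pools for ILMN_1250059. These values overlapped and were not tested. Grik1 had 7 probes, of which 1 was detected on all 6 arrays and 6 on none.

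**Figure D1:**
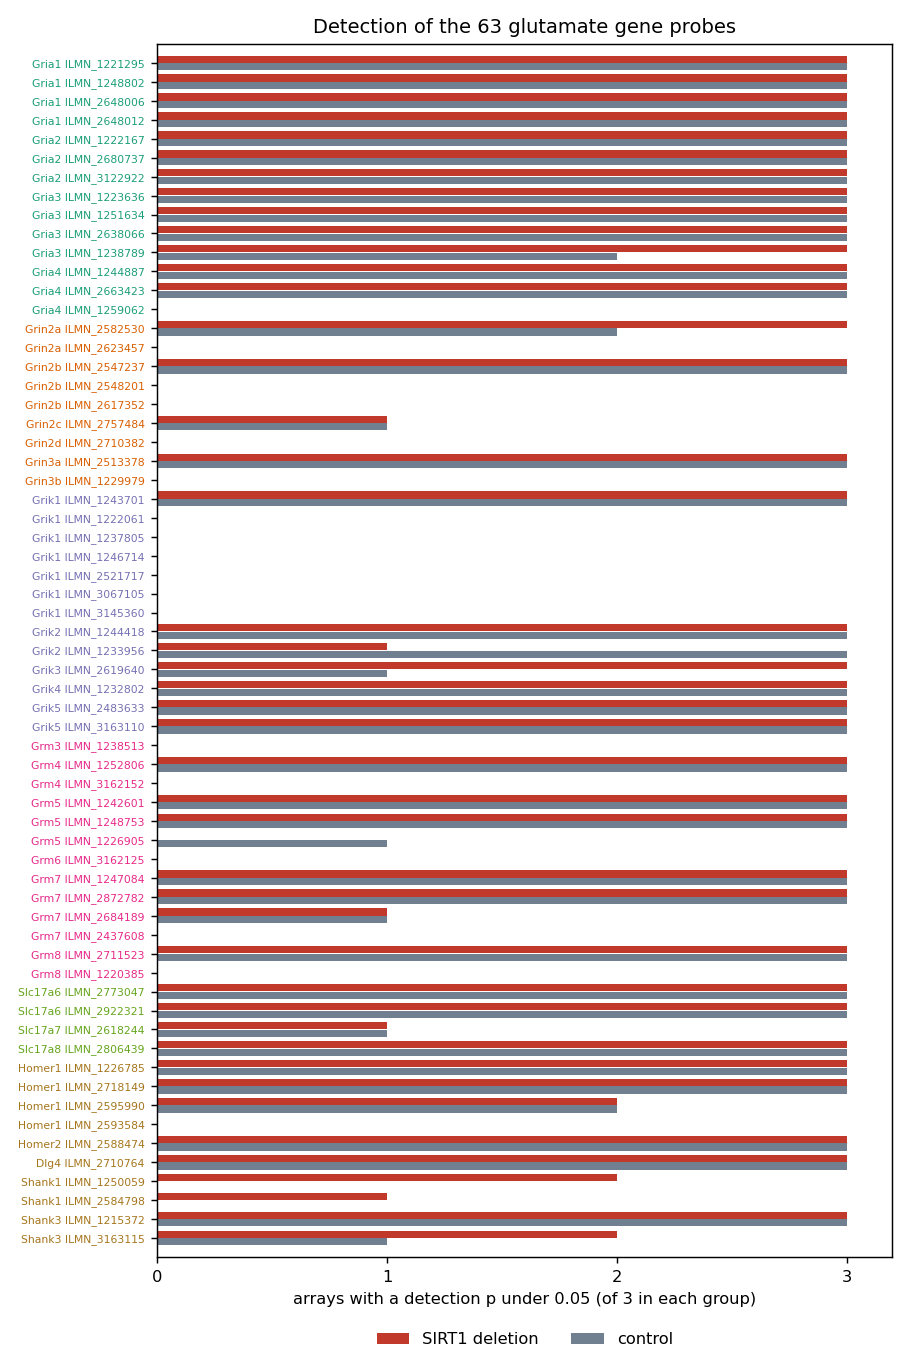
Number of arrays, out of 3 in each group, on which each of the 63 probes had a detection p under 0.05, with SIRT1 deletion above control for each probe. The horizontal axis counts arrays, label colours mark the receptor or protein class, and a probe with no bar was detected on 0 arrays, as for 18 probes.

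None of the 39 tested probes differed between SIRT1 deletion and control pools at a limma adjusted p under 0.05 (0 of 39, smallest adjusted p = 0.572, n = 3 pools each). Over all tested probes 10 did so, or 0.0490%, with 6 higher (0.0294%) and 4 lower (0.0196%), and under median scaling the split was 7 higher and 12 lower. At an unadjusted limma p under 0.05 there were 2 member probes, both lower in SIRT1 deletion pools and both of AMPA subunits. That is 5.13% of the 39, against 8.47% of all tested probes (4.49% higher and 3.98% lower). Under median scaling the order turned, with 10 of 39 member probes (25.6%), all lower, against 19.7% of all tested probes (1.49% higher and 18.2% lower). In 4 of the 39 (10.3%) the groups were fully apart, 3 lower and 1 higher, against 14.0% of all tested probes (6.84% lower and 7.15% higher). Among the 3 lower, Grik2 ILMN_1233956 was detected on 3 control arrays but only 1 deletion array. That probe passed the filter only through the control pools, where it was higher. Of the 39, 22 were lower and 17 higher, and 51.0% of all tested probes were lower. Median scaling in place of quantile normalisation shifted the median of all tested probes to -0.12, and 33 of the 39 were then lower, 23 of them below that median, with 76.2% of all tested probes lower. Leaving out 1 pool turned the sign of 15 of the 39 and, counting these, moved 31 by more than 1.5 times. The median log2 fold change was -0.048 over the 39 and -0.0030 over all tested probes. The median size of the change, sign aside, was 0.098 on the log2 scale over the 39 and 0.10 over all tested probes. In bulk tissue, fewer cells of a type and less RNA per cell cannot be told apart.

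The precision allows bounds on most members. The half-width of the 95% interval (limma) ran from 0.19 to 0.66 on the log2 scale, with a median of 0.25. Only 4 of the 39 intervals reached a 1.5-fold change, namely 2 of Gria3 and 1 each of Grm5 and Shank3, and only the interval of the Grm5 probe ILMN_1242601 reached 2-fold. Intensities carry an added offset of 16, which compresses the changes of dim probes. Values given below without background correction still hold the background, which compresses the changes of dim probes further.

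**Figure D2:**
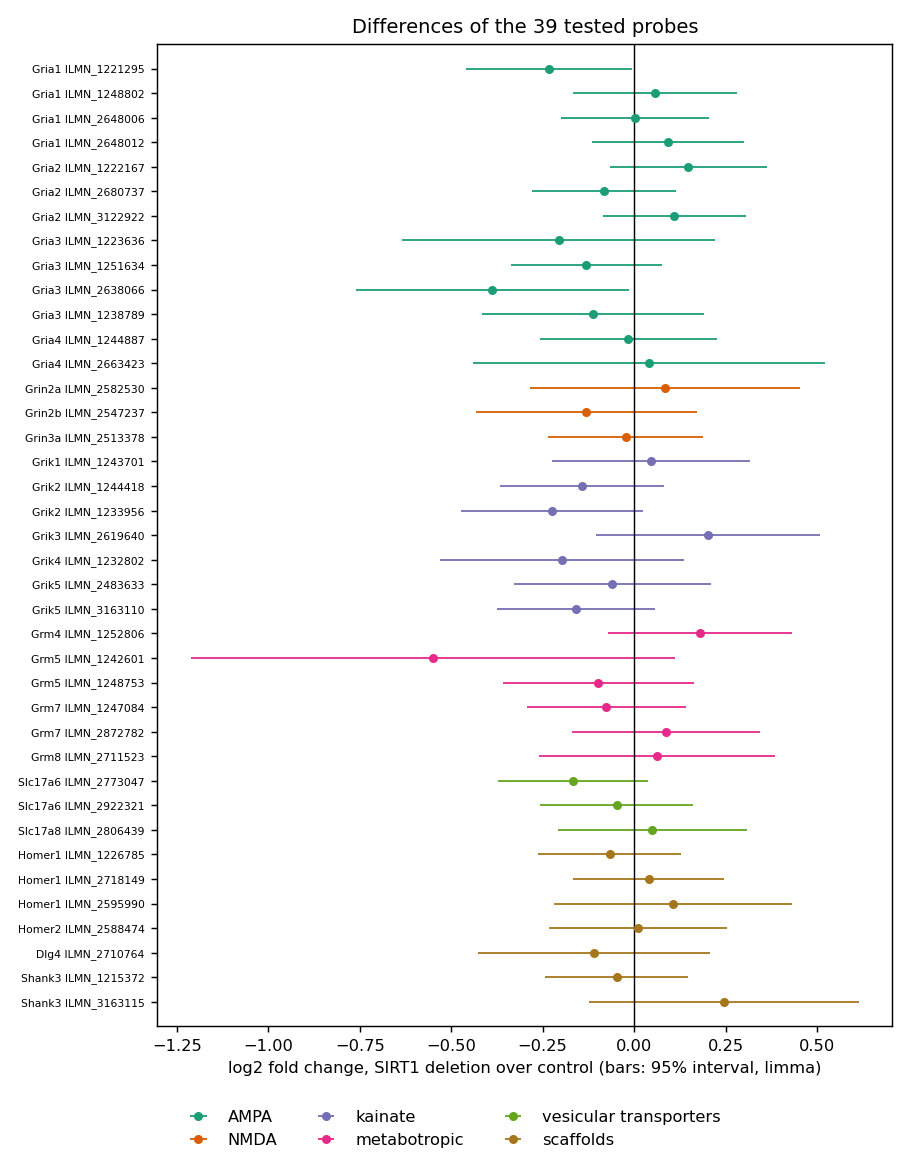
Log2 fold change, SIRT1 deletion over control, of each of the 39 tested probes with its 95% interval from limma, coloured by class. All intervals but those of 2 AMPA probes (Gria1 ILMN_1221295 and Gria3 ILMN_2638066) include 0, before adjustment for the number of probes.

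AMPA receptors are tetramers of the products of Gria1 to Gria4. Their 13 tested probes had 7 lower and 6 higher values and a median log2 fold change of -0.016, and 0 passed. Gria1 encodes a subunit whose insertion at synapses is regulated by activity. Its probe ILMN_1221295 had log2 intensities of 11.28, 11.02 and 11.23 in SIRT1 deletion pools 1 to 3, against 11.39, 11.39 and 11.46 in control pools 1 to 3. All 3 deletion pools lay below all 3 control pools, with SIRT1 deletion 2 the lowest. The difference was -0.23 (95% interval -0.46 to -0.0068, limma unadjusted p = 0.0447, adjusted p = 0.577, exact permutation p = 0.1, the smallest that 3 against 3 pools allow). Its size over the alternatives ran from -0.41 to -0.16.

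The other 3 Gria1 probes gave log2 fold changes of 0.057 (ILMN_1248802), 0.0023 (ILMN_2648006) and 0.094 (ILMN_2648012), and their groups overlapped; under median scaling all 3 were below 0. Within each array, ILMN_1221295 minus the mean of these 3 probes was 1.13, 0.88 and 0.99 on the log2 scale in SIRT1 deletion pools 1 to 3, against 1.24, 1.32 and 1.28 in control pools 1 to 3. This difference between probes of 1 gene was lower in every deletion pool than in any control pool, by 0.28 (exact two-sided permutation p = 0.1). The contrast was formed after the values were seen. Where on the transcript each probe lies is unknown here.

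Gria2 encodes the subunit that, in its edited form, makes AMPA receptors impermeable to calcium. ILMN_3122922 had log2 intensities of 10.33, 10.38 and 10.29 in SIRT1 deletion pools, against 10.23, 10.17 and 10.28 in control pools. This was the only 1 of the 39 tested probes in which every deletion pool lay above every control pool, and the gap was small. Its log2 difference of 0.11 (95% interval -0.085 to 0.31, limma adjusted p = 0.725) was -0.061 under median scaling. ILMN_1222167 gave 0.15, and ILMN_2680737 gave -0.083 with the opposite sign.

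Gria3 was lower in SIRT1 deletion pools by all 4 of its tested probes, none past the adjusted threshold. For ILMN_2638066 the log2 intensities were 6.26, 5.79 and 5.68 in SIRT1 deletion pools 1 to 3, against 6.07, 6.37 and 6.45 in control pools 1 to 3. SIRT1 deletion 2 and 3 were the low pools, while SIRT1 deletion 1 lay above control 1, so the groups overlapped. The difference was -0.39 (95% interval -0.76 to -0.014, limma unadjusted p = 0.0438, adjusted p = 0.572, exact permutation p = 0.2). It was -0.13 without background correction and -0.57 without SIRT1 deletion 1. The other Gria3 probes gave log2 fold changes of -0.21 (ILMN_1223636), -0.13 (ILMN_1251634) and -0.11 (ILMN_1238789, detected on 3 deletion and 2 control arrays). Probes of 1 gene share the RNA of the same 6 pools and are not replicates of each other.

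Gria4 had 2 tested probes, with log2 fold changes of -0.016 (ILMN_1244887) and 0.040 (ILMN_2663423). Both overlapped widely. ILMN_2663423 ran from 4.92 to 5.64 in SIRT1 deletion pools and from 4.91 to 5.52 in control pools, so its interval of -0.44 to 0.52 leaves the size of a change poorly bounded.

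**Figure D3:**
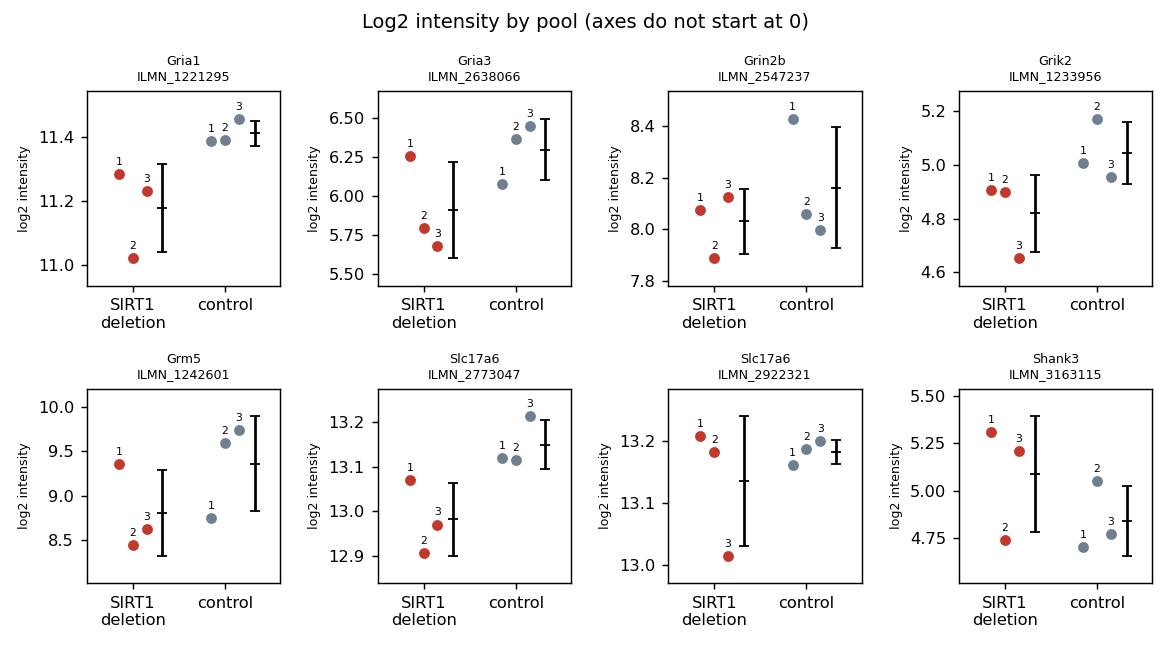
Log2 intensity in each pool for 8 probes, with SIRT1 deletion on the left of each panel and control on the right; digits are pool numbers and black bars are the mean and SD of 3 pools. Each panel has its own vertical axis, which does not start at 0. The groups do not overlap for Gria1 ILMN_1221295, Grik2 ILMN_1233956 and Slc17a6 ILMN_2773047, and overlap in the other 5.

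NMDA receptors join an obligatory subunit, encoded by Grin1, with glutamate-binding subunits of the Grin2 genes or glycine-binding ones of the Grin3 genes. Of this class 3 probes were tested, with log2 fold changes from -0.13 to 0.084 and overlapping groups in each. Grin2b, the subunit known from immature and extrasynaptic receptors, had log2 intensities of 8.08, 7.89 and 8.13 in SIRT1 deletion pools 1 to 3, against 8.43, 8.06 and 8.00 in control pools 1 to 3. Control 1 was the highest of the 6 and the remaining pools lay close together. The difference was -0.13 (95% interval -0.43 to 0.17, limma adjusted p = 0.794), and it was 0.0029 without control 1. The remaining Grin2b probes, ILMN_2548201 and ILMN_2617352, were detected on 0 arrays.

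Grin3a, which encodes a subunit that lowers calcium entry, averaged 11.31 ± 0.071 in SIRT1 deletion pools and 11.34 ± 0.087 in control pools (log2 intensity, SD, n = 3 each). The interval of its difference was -15.0% to 14.0%. Grin2a, typical of mature synapses, was dim and averaged 5.07 ± 0.093 in SIRT1 deletion pools, detected on 3 of 3 arrays, and 4.98 ± 0.35 in control pools, detected on 2 of 3. A change of up to 36.9% upwards or 17.9% downwards in the intensity of this Grin2a probe lies within its 95% interval. Because the added offset compresses changes at such low intensity, the interval does not bound a change in the transcript. The other Grin2a probe was detected on 0 arrays.

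Kainate receptors are built from Grik1 to Grik3, with Grik4 and Grik5 encoding the high-affinity partner subunits. Their 7 tested probes had a median log2 fold change of -0.14, with 5 lower and 2 higher, and 0 passed. Grik2 had 2 tested probes. ILMN_1233956 had log2 intensities of 4.91, 4.90 and 4.65 in SIRT1 deletion pools 1 to 3, against 5.01, 5.17 and 4.95 in control pools 1 to 3. Every deletion pool lay below every control pool, but the probe was detected on 1 of 3 deletion arrays and 3 of 3 control arrays, and the lowest detected value per array was 4.86 to 4.90. For 2 of the deletion pools the value was thus not above background. The log2 difference of -0.23 (95% interval -0.47 to 0.023, limma adjusted p = 0.600) was -0.051 without background correction.

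The brighter Grik2 probe, ILMN_1244418, averaged 7.75 ± 0.064 in SIRT1 deletion pools and 7.89 ± 0.12 in control pools, a difference of -0.14 with overlapping groups. Grik5 was also lower by both probes, with -0.16 (ILMN_3163110) and -0.060 (ILMN_2483633). Grik4 averaged 5.93 ± 0.27 in SIRT1 deletion pools and 6.12 ± 0.16 in control pools. On the other side of 0 were Grik1, with a log2 fold change of 0.046 (-0.030 to 0.14 with any 1 pool left out), and Grik3, with 0.20 (0.10 without control 1 and 0.35 without control 2). Grik3 was detected on 3 deletion arrays and 1 control array, at 4.95, 4.99 and 5.05 in SIRT1 deletion pools against 4.60, 5.10 and 4.69 in control pools, so control 2 lay above all 3 deletion pools.

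Metabotropic receptors fall into group I (Grm5 here), which signals through calcium release, and groups II and III, which lower cyclic AMP. Of group II, Grm3 was not above background and Grm2 was not analysed here. The 6 tested probes of the class had 3 lower and 3 higher values and a median of -0.0070. Grm5 gave the widest-spread value of all members. Its probe ILMN_1242601 had log2 intensities of 9.35, 8.45 and 8.63 in SIRT1 deletion pools 1 to 3, against 8.76, 9.59 and 9.73 in control pools 1 to 3. SIRT1 deletion 1 lay with the 2 high control pools, and control 1 lay with the 2 low deletion pools. The difference was -0.55 (95% interval -1.21 to 0.11, limma unadjusted p = 0.0928, adjusted p = 0.622, exact permutation p = 0.2). It ran from -0.85 without control 1 to -0.36 without control 3. The spread within groups (pooled SD 0.51) was larger than for 99.3% of all tested probes.

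The other tested Grm5 probe, ILMN_1248753, had a smaller difference. It read 6.23, 6.01 and 5.98 in SIRT1 deletion pools 1 to 3, against 6.06, 6.11 and 6.35 in control pools 1 to 3, a log2 fold change of -0.098. The remaining Grm5 probe was detected on 1 control array and 0 deletion arrays.

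The group III receptors act mainly at presynaptic terminals. Grm4 averaged 8.32 ± 0.17 in SIRT1 deletion pools and 8.14 ± 0.083 in control pools, a difference of 0.18 (95% interval -0.071 to 0.43, limma adjusted p = 0.665), with overlapping groups. Grm7 had tested probes of opposite sign, -0.076 (ILMN_1247084) and 0.087 (ILMN_2872782). Grm8 averaged 7.50 ± 0.23 in SIRT1 deletion pools and 7.44 ± 0.18 in control pools. Grm4 and Grm8 each had a further probe, detected on 0 arrays.

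Slc17a6 encodes the vesicular glutamate transporter that the SF1 neurons use, and earlier work has deleted it in these neurons with the same kind of Cre driver. Its probe ILMN_2773047 had log2 intensities of 13.07, 12.91 and 12.97 in SIRT1 deletion pools 1 to 3, against 13.12, 13.12 and 13.21 in control pools 1 to 3. The 3 deletion pools lay below the 3 control pools. The difference was -10.9% (95% interval -22.8% to 2.73%, limma unadjusted p = 0.0991, adjusted p = 0.628, exact permutation p = 0.1).

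The second Slc17a6 probe, ILMN_2922321, had 13.21, 13.18 and 13.02 in SIRT1 deletion pools 1 to 3, against 13.16, 13.19 and 13.20 in control pools 1 to 3. Here SIRT1 deletion 1 was the highest of the 6 pools and SIRT1 deletion 3 the lowest, and the groups overlapped. The difference was -3.27% (95% interval -16.3% to 11.8%, adjusted p = 0.898 by limma), and without SIRT1 deletion 3 it was 0.012 on the log2 scale. Slc17a8, whose product also occurs in neurons that release other transmitters, averaged 6.43 ± 0.18 in SIRT1 deletion pools and 6.38 ± 0.088 in control pools.

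The scaffold genes had 7 tested probes with log2 fold changes from -0.11 to 0.25 and a median of 0.010, and the groups overlapped in all 7. Dlg4 had log2 intensities of 8.22, 7.89 and 7.96 in SIRT1 deletion pools 1 to 3, against 7.87, 8.25 and 8.28 in control pools 1 to 3, a difference of -0.11. With 1 pool left out it ran from -0.24 (without control 1) to -0.039 (without control 3). As with Grm5, control 1 and SIRT1 deletion 2 and 3 were the 3 low pools. Homer1 encodes linkers of group I metabotropic receptors, and 1 of its isoforms is induced by activity. Its tested probes gave -0.067 (ILMN_1226785), 0.040 (ILMN_2718149) and 0.11 (ILMN_2595990, detected on 2 arrays of each group), and it is unknown here which isoform each probe reads. Homer2 averaged 8.97 ± 0.055 in SIRT1 deletion pools and 8.96 ± 0.17 in control pools.

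Shank3 had tested probes of opposite sign. ILMN_1215372 was tightly measured, at 8.56 ± 0.044 in SIRT1 deletion pools and 8.61 ± 0.044 in control pools, and its interval was -15.5% to 10.7%. ILMN_3163115 had log2 intensities of 5.31, 4.74 and 5.21 in SIRT1 deletion pools, against 4.70, 5.05 and 4.77 in control pools, a difference of 0.25 (95% interval -0.12 to 0.61, adjusted p = 0.682 by limma). It was detected on 2 deletion arrays and 1 control array, so that value lies at the limit of detection, and it was 0.054 without background correction, 0.13 without SIRT1 deletion 1 and 0.42 without SIRT1 deletion 2.

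Of the 11 genes with more than 1 tested probe, 5 had probes of 1 sign, all lower in SIRT1 deletion pools (Gria3, Grik2, Grik5, Grm5 and Slc17a6). A probe of Grik5 (ILMN_2483633) gave 0.0041 without control 2 and a probe of Slc17a6 turned sign without SIRT1 deletion 3, so those 2 genes then had probes of both signs. The other 6 (Gria1, Gria2, Gria4, Grm7, Homer1 and Shank3) had probes of both signs. The same count was not made over all genes, so it does not set the members apart. The largest spread between probes of 1 gene was 0.45 on the log2 scale for Grm5 and the smallest 0.056 for Gria4. The mean log2 intensity over the 22 tested genes was 7.84, 7.80 and 7.82 in SIRT1 deletion pools 1 to 3, against 7.81, 7.87 and 7.86 in control pools 1 to 3, so that SIRT1 deletion 1 and 3 lay above control 1.

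**Figure D4:**
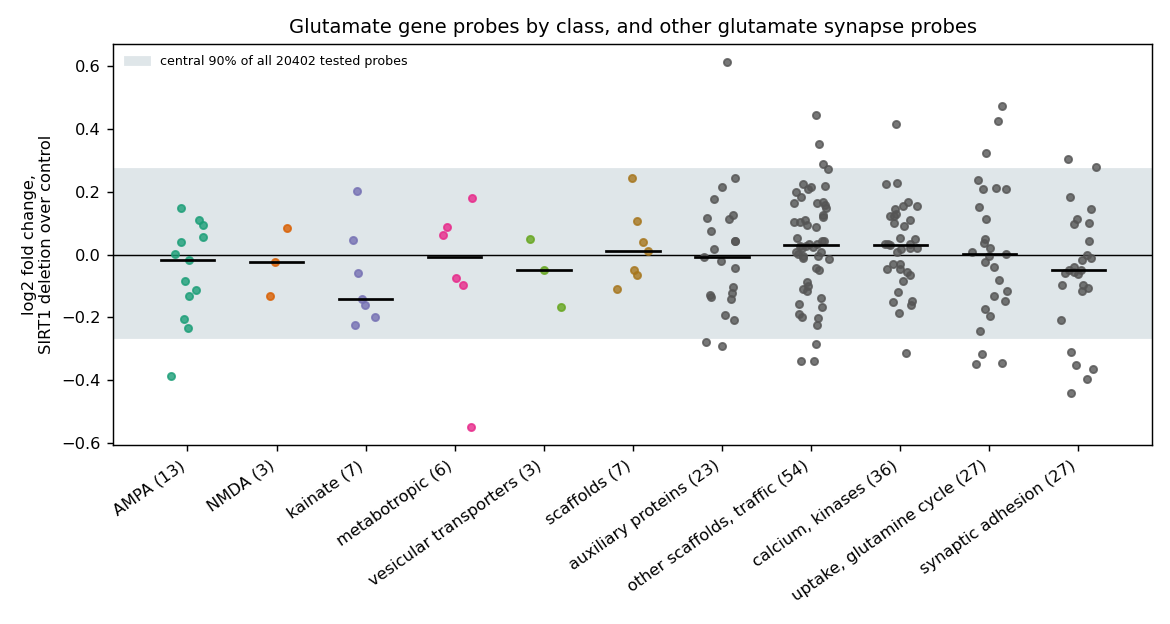
Log2 fold change, SIRT1 deletion over control, of each tested probe (points) and the median (black line) by class for the glutamate genes and for 5 lists of other glutamate synapse genes in grey, with the number of probes in brackets. The shaded band holds the central 90% of all 20402 tested probes, from -0.27 to 0.27, and 2 glutamate gene probes, of Gria3 and Grm5, lie below it.

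Genes that work with these receptors were examined in 5 lists of 108 genes, of which 82 were tested by 167 probes. At a limma adjusted p under 0.05, 0 of the 167 passed (smallest adjusted p = 0.338). At an unadjusted p under 0.05 there were 17, with 9 higher and 8 lower, or 10.2% against 8.47% of all tested probes. The groups did not overlap in 26 (15.6%, against 14.0% of all tested probes). The median log2 fold change was 0.016.

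Among 14 auxiliary protein genes, 3 of 23 probes (13.0%) reached an unadjusted p under 0.05, against 8.47% of all tested probes. Neto1, an auxiliary subunit of kainate receptors, had log2 intensities of 6.17, 6.26 and 6.04 in SIRT1 deletion pools, against 6.39, 6.50 and 6.42 in control pools (ILMN_2837179, log2 fold change -0.28, limma adjusted p = 0.536). Its other tested probes gave -0.21 and -0.29, so all 3 lay on the same side. Nptx1, a pentraxin that clusters AMPA receptors, gave 0.61 (limma adjusted p = 0.539) with SIRT1 deletion 1 below control 1. Cnih3, which aids export of AMPA receptors, gave 0.24 (adjusted p = 0.542, limma).

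Of 54 probes for 23 further scaffold and traffic genes, 34 were higher and 20 lower (37.0%, against 51.0% of all tested probes). Under median scaling 38 of the 54 were lower (70.4%, against 76.2% of all tested probes). An unadjusted p under 0.05 was reached by 3 (5.56%, below the 8.47% of all tested probes), all higher. Iqsec2, an exchange factor of the postsynaptic density, had the lowest p of the 167 probes. ILMN_2824098 read 6.07, 6.15 and 6.29 in SIRT1 deletion pools, against 5.65, 5.71 and 5.81 in control pools (log2 fold change 0.45, 95% interval 0.22 to 0.67, limma adjusted p = 0.338). The groups were well apart for this probe, whereas the other Iqsec2 probe gave 0.024, and without background correction ILMN_2824098 gave 0.14. Dlgap2 and Dlgap4 encode proteins that bridge Dlg4 and Shank. Dlgap2 gave 0.35, 0.16 and 0.043 by its 3 probes, and Dlgap4 gave 0.29, -0.20, -0.015 and 0.0072 by its 4.

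In the calcium and kinase list 1 of 36 probes (2.78%) reached an unadjusted p under 0.05, below the 8.47% of all tested probes. Of the 36, 23 were higher and 13 lower (36.1%, against 51.0% of all tested probes). Under median scaling 29 of the 36 were lower (80.6%, against 76.2%). Camk2a, a kinase subunit activated by calcium through NMDA receptors, had 8.35, 8.84 and 8.76 in SIRT1 deletion pools, against 8.18, 8.21 and 8.32 in control pools (ILMN_2677393, log2 fold change 0.41, limma adjusted p = 0.512). Its other probe gave 0.12 with overlapping groups. Camk2d gave 0.23 by the probe of lowest p and -0.045 to 0.16 by its 5 others. Ppp3ca, the catalytic subunit of calcineurin, gave -0.31 and -0.086.

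For uptake and the glutamine cycle, 4 of 27 probes (14.8%) reached an unadjusted p under 0.05, against 8.47% of all tested probes. With only the brightest probe of each gene, 0 of 13 reached it, against 8.82% of all probes. Srr, the enzyme that makes the NMDA co-agonist D-serine, had 7.88, 7.76 and 7.89 in SIRT1 deletion pools, against 8.14, 8.20 and 8.14 in control pools (ILMN_2622605, log2 fold change -0.32, limma adjusted p = 0.463). Its other 2 tested probes gave -0.12 and 0.022. Glud1, glutamate dehydrogenase, gave 0.47, 0.15 and 0.11, and Slc7a11, the cystine and glutamate exchanger, gave -0.35, -0.24 and -0.039.

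Synaptic adhesion genes had 19 of 27 probes lower (70.4%, against 51.0% of all tested probes), and 22 of 27 under median scaling (81.5%, against 76.2%). An unadjusted p under 0.05 was reached by 6 (22.2%, against 8.47% of all tested probes), 5 of them lower (18.5%, against 3.98%), and under median scaling by 7 (25.9%, against 19.7%). Several of the lower ones were probes of a single gene, Adgrl3. With 1 probe a gene, 3 of 15 reached that p (20%, against 8.82%), of which 2 were lower (13.3%, against 4.21%). Without SIRT1 deletion 3, 3 of 27 reached it (11.1%, against 6.50%). Adgrl3, a latrophilin, gave -0.44 (ILMN_1255612, detected on 3 arrays), -0.35 (ILMN_1222898) and -0.21 (ILMN_2782041) with groups that did not overlap. ILMN_1255612 read 4.85, 4.55 and 4.79 in SIRT1 deletion pools 1 to 3, under the lowest detected values of those arrays (4.89, 4.90 and 4.87). It passed the filter only through the control pools, where it was higher, and it counts among the 5 lower probes. The other 4 tested Adgrl3 probes gave 0.18, 0.097, 0.11 and -0.040. Flrt2, which belongs to a family of latrophilin ligands, had 5.93, 5.79 and 5.58 in SIRT1 deletion pools, against 6.28, 6.10 and 6.11 in control pools (log2 fold change -0.40, limma adjusted p = 0.470). C1ql2, a secreted synaptic organiser, had 10.83, 10.82 and 11.02 in SIRT1 deletion pools, against 10.43, 10.65 and 10.68 in control pools (log2 fold change 0.30, limma adjusted p = 0.537).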

How the data were processed

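Per the labels' protocols, Trizol-extracted RNA was column-purified with DNase treatment, and its integrity was assessed before biotin labelling as cRNA. Per the file headers, the deposited table holds a mean bead intensity and a detection p-value per probe and array. The intensity was deposited on a linear scale and not scaled between arrays (raw medians were 140.4 to 142.1 in SIRT1 deletion and 145.5 to 149.4 in control pools). A second deposited table holds intensity values with a median of 134.4 on all 6 arrays, and the sources used here do not name the scanner software.

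In R 4.3.3 with limma 3.58.1, intensities were corrected with normexp from the detection p-values, given an offset of 16, quantile normalised and log2 transformed. Probes with detection p under 0.05 on 3 or more of 6 arrays were tested, each as its own feature. Groups were compared with lmFit and eBayes, with Benjamini-Hochberg adjustment over all 20402 probes. Exact two-sided permutation tests enumerated the splits of 6 pools. Symbols came from the platform annotation (34885 probes with 1, 18 with several, 10378 with none). Members and lists were chosen with earlier results of these data known. Per-pool values are given by rule for Slc17a6, for member probes at an unadjusted p under 0.05 and for the probe of lowest p in each class, and fold changes for all tested probes of a gene with 3 or more, or with opposite signs. Other pathway genes are the 3 of lowest p per list. Other per-pool values (Gria2, Gria4, Grik3, Dlg4, Shank1 and the second Grm5 probe) were chosen after they were seen. The test was tried on simulated data, drawn as independent normal values with 200 of 20402 probes changed. At a limma adjusted p under 0.05 it recovered 5.9% of 1.25-fold, 67.3% of 1.5-fold and 98.7% of 2-fold changes. These rates hold for that setting only, in which most 1.25-fold changes were missed. The number of arrays limits the precision. Python 3.11.15 with matplotlib 3.10.9 drew the figures.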

Additional observations from a re-analysis of the deposited data

How the results depend on the processing

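No member probe and none of the 167 probes of the other glutamate synapse genes passed an adjusted p of 0.05 under any of the 17 alternatives, and the smallest adjusted p of a member was 0.185 (Gria3 ILMN_2638066 without SIRT1 deletion 1). Over all probes, the count of 10 became 16 with maximum-likelihood normexp, 16 with an offset of 50, 19 with median scaling, 2 with detection p under 0.01 on all 6 arrays and 29 with an intensity trend and robust prior, and lay between 9 and 12 when any 1 pool was left out. The 2 member probes at an unadjusted p under 0.05 (5.13%, against 8.47% of all probes) became 10 with median scaling (25.6%, against 19.7%), 5 with no filter (7.94%, against 7.45%), 1 with 1 probe a gene (4.55%, against 8.82%) and 0 with the replicate block (against 7.10%). With any 1 pool left out they were 0 to 4: 0 without SIRT1 deletion 3 (against 6.50% of all probes) or control 3 (7.16%), 1 without control 2 (5.37%) and 4 (10.3%) without SIRT1 deletion 1 (13.8%). Median scaling moved the median log2 fold change of all tested probes to -0.12 and that of the member probes to -0.19, so that 23 of 39 members lay below the median of all probes, against 22 as reported. The member median lay between -0.056 and -0.028 when any 1 pool was left out. Of the 39 member probes, 21 kept their sign under every alternative that tested them and 18 turned under at least 1, 11 under median scaling and 15 with 1 pool left out, some under both. Of the probes given by pool under the rule, the sign turned for Grin2b without control 1 (0.0029, range -0.21 to 0.0029 with any 1 pool left out) and for Slc17a6 ILMN_2922321 without SIRT1 deletion 3 (0.012, range -0.084 to 0.012). Same-numbered pools did not deviate together (correlations across probes of -0.078, -0.057 and -0.040). With 3 pools per group this cannot exclude that the pools were paired, and the labels state no pairing. With the replicate block 8 probes passed over all probes and 0 members. No chip could be read from the columns, so chip was not fitted as a block. The cause of these shifts was not tested. Signal over background limits the dim probes, of which 6 of the 39 were not detected on all arrays.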

Other observations

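In 7 of the 39 tested member probes (17.9%) the 3 lowest pools were control 1, SIRT1 deletion 2 and SIRT1 deletion 3, an order found in 8.51% of all tested probes. These probes were 2 of Gria3 (ILMN_1251634 and ILMN_2638066), both tested probes of Grm5, Slc17a6 ILMN_2922321, Homer1 ILMN_1226785 and Dlg4. The order was noticed after the values were seen, and it places 1 control pool with 2 deletion pools. The same 3 pools were lowest on the first principal component, the main axis of variation between the arrays (34.1% of the variance). Their scores were -19.99 for SIRT1 deletion 2, -18.19 for SIRT1 deletion 3 and 4.48 for control 1. SIRT1 deletion 1 lay close to control 1, at 5.21. The order is thus not particular to the member probes, and how far they follow this axis was not tested.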
